A study of Homo sapiens with 36 samples.

Results

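The comparison described here set FLO1 cells that carry the hairpin shAPE1#1 against FLO1 cells that carry a control hairpin (shControl), both after acidic bile salts (ABS). It rests on 3 libraries per group, 6 of the 36 libraries of the series, and on 16868 genes that passed the filter on low counts. FLO1 is an established human esophageal adenocarcinoma cell line, grown here in DMEM. The shAPE1#1 group had been stably transduced with a short hairpin RNA against APEX1, the gene of the protein APE1, and the shControl group with a non-targeting hairpin. Both groups received 200 µM bile salts at pH 4 for 20 min and then recovered for 6 h in complete medium before polyA RNA was collected. Unexposed FLO1 cells with shAPE1#1 or with shControl, and FLO1 cells with a further hairpin against APEX1 (shAPE1#3) after ABS, had 3 libraries each and are used where named. The series' design text calls the replicates biological and independent. Whether a transduced line is a pool or a clone is not given in the sources used here. Each hairpin stands for its own cell line, so an effect of losing APE1 and any other property of that line cannot be told apart in this comparison.

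APE1 cuts DNA at sites that have lost their base, a central step of base excision repair, and it also keeps several transcription factors in a reduced state in which they bind DNA. Refluxed acid and bile salts reach the esophagus in gastroesophageal reflux disease, the main setting in which this adenocarcinoma arises. They damage proteins and DNA, and cells answer with heat shock proteins, the unfolded protein response, the integrated stress response and immediate early transcription factors. The series asks what APE1 does for that transcriptional answer.

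The shAPE1#1 ABS libraries held 32.6 to 34.7 M counts and the shControl ABS libraries 21.8 to 28.8 M counts. Levels below are CPM, read counts scaled to 1e6 per library, and each change is a log2 fold change of shAPE1#1 over shControl with its standard error (SE). Calls rest on an adjusted p below 0.05 (edgeR quasi-likelihood test, Benjamini-Hochberg over all 16868 genes). Of the markers of adenocarcinoma epithelium, KRT8 and KRT18 were abundant, and EPCAM and GRHL2 were near absent. CLDN4, KRT7, KRT19 and CDH1 lay between, at 29.2 to 34.1, 16.5 to 25.9, 11.4 to 19.3 and 13.3 to 16.9 CPM in shAPE1#1 ABS. In shControl ABS they stood at 13.2 to 20.1, 17.8 to 25, 6.85 to 14.1 and 6.41 to 7.9 CPM. The 8 epithelial markers fixed for this check summed to 4270 to 4720 CPM in shAPE1#1 ABS and 2400 to 3180 CPM in shControl ABS, almost all of it KRT8 and KRT18. EPCAM stood at 0.664 to 1.11 CPM in shAPE1#1 ABS and 0.328 to 0.548 CPM in shControl ABS, and GRHL2 at 0.217 to 0.317 CPM in shAPE1#1 ABS and 0 to 0.237 CPM in shControl ABS. In shAPE1#1 ABS the 10 fibroblast markers summed to 24.7 to 27.3 CPM, the 12 immune markers to 6.84 to 8.38 CPM and the 8 endothelial markers to 6.05 to 6.55 CPM. In shControl ABS these sums were 26 to 38.7 CPM, 7.81 to 9.7 CPM and 6.1 to 9.6 CPM. CD3D, MS4A1, EMCN and KDR were at 0. A set of 14 genes that are high in OE33, the other cell line of the series, and nearly silent in unexposed FLO1 shControl cells stood at 0.153 to 0.245% of their OE33 level in shAPE1#1 ABS and at 0.1 to 0.177% in shControl ABS.

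One control library stood apart in base composition. Genes were ranked by the GC content of their transcripts and cut into 10 classes of equal size. In shControl ABS replicate 2 the class with the lowest GC content lay 0.72 below the other 2 replicates of its group on the log2 scale (-0.72) and the class with the highest 0.52 above them, a span of 1.24. The spans of shControl ABS replicates 1 and 3, which are set against replicate 2 in this measure, were -0.88 and -0.37. The 15 other FLO1 libraries had spans of -0.42 to 0.35. The median change of shAPE1#1 against shControl followed GC content, from 0.18 in the lowest class to -0.22 in the highest. Without shControl ABS replicate 2 it was -0.02 in both, and after a correction of each library for its GC trend it was -0.01 and 0. Results below were therefore also computed without that library and with the correction, and for genes named below a call that either of them ended is named. These fits called 2390 genes (13.8%; 7.92% higher, 5.83% lower) and 4258 genes (25.2%; 13.1% higher, 12.1% lower), and both together 3475 (20.0%; 10.9% higher, 9.14% lower).

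**Figure D1:**
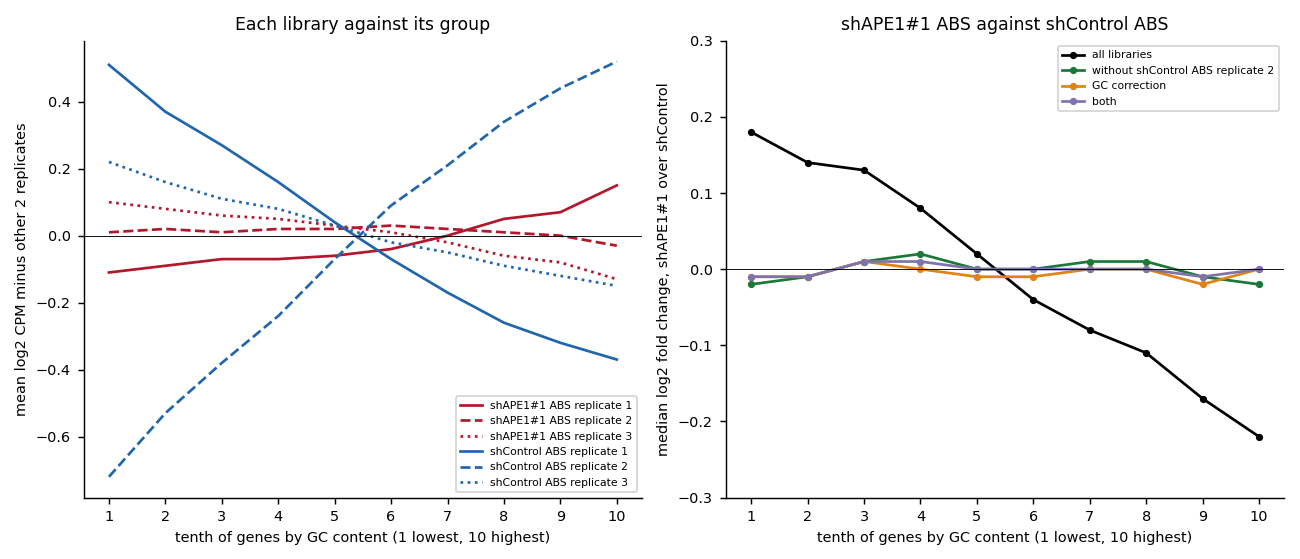
GC content and the libraries. Left, mean log2 CPM of each library minus the mean of the other 2 replicates of its group, by class of genes ranked on GC content (1 lowest, 10 highest), for shAPE1#1 ABS (red) and shControl ABS (blue). Right, median log2 fold change of shAPE1#1 ABS over shControl ABS in each class for all libraries, without shControl ABS replicate 2, with GC correction and with both. The dashed blue line of shControl ABS replicate 2 runs from -0.72 to 0.52, and the black line runs from 0.18 to -0.22 while the other 3 stay near 0.

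APEX1 (ENSG00000100823; GRCh38 chr14:20455191-20457772, plus strand, protein coding) stood at 28.2, 27.3 and 24.9 CPM in the shAPE1#1 ABS libraries, against 179, 180 and 198 CPM in the shControl ABS libraries. The groups were far apart, and APEX1 was low in each library labelled shAPE1#1. The log2 fold change was -2.79 ± 0.09, a 6.93-fold fall (edgeR adjusted p = 2.49e-15). APEX1 averaged 34.07 ± 2.76 CPM with shAPE1#3 after ABS (SD, n = 3), and shAPE1#1 lay below that by -0.35 ± 0.08 (edgeR adjusted p = 0.00446). Of 13 tested neighbours of APEX1 on chromosome 14, 0 were higher and 1 was lower. That call, for ARHGEF40, a guanine nucleotide exchange factor, was lost without shControl ABS replicate 2 (adjusted p = 0.126). With the GC correction 0 of the 13 were higher and 3 lower, against 13.1% and 12.1% over all genes in that fit.

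Beyond APEX1 the change was wide and mostly small. In all 2795 genes were called, 16.6% of those tested, with 1393 higher in shAPE1#1 (8.26%) and 1402 lower (8.31%). The median absolute log2 fold change of the called genes was 0.5, and 1759 of them changed by less than 1.5-fold. At least 2-fold changes were found in 340 called genes (2.02%), 201 of them higher (1.19%) and 139 lower (0.824%). The CPM of the 2 groups did not overlap in 4678 genes (27.7%). The genes called higher had a median GC content of 46.5% and those called lower 57.4%, against 50.6% for all genes tested. Of the 2795 genes, 1822 were also called in the same direction without shControl ABS replicate 2, 2526 with the GC correction, and 1759 in both (997 higher and 762 lower). A fit of only the 6 libraries compared called 422. Such fits of 6 libraries called 4746 genes between the hairpins after ABS and 2463 in unexposed cells. The shared fit called 3757 and 1137 there, and the cause of these differences was not tested.

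The rises named next are the largest among called protein-coding genes with a mean log2 CPM no lower than 1 whose groups did not overlap. MAP7, a microtubule-associated protein that recruits kinesin motors (chr6:136342281-136550819, minus strand), stood at 5.82, 7.46 and 7.21 CPM in shAPE1#1 ABS, against 1.18, 1.23 and 1.27 CPM in shControl ABS (log2 fold change 2.48 ± 0.19, edgeR adjusted p = 3.83e-08). G0S2, an inhibitor of the lipase that opens fat stores (chr1:209675420-209676388, plus strand), stood at 28.8, 25.5 and 28.2 CPM, against 5.18, 5.68 and 4.09 CPM in shControl ABS (2.46 ± 0.17, edgeR adjusted p = 1.5e-08). STC1, the secreted hormone stanniocalcin 1, stood at 32, 41.5 and 45.2 CPM in shAPE1#1 ABS, against 11.7, 11.9 and 11.3 CPM in shControl ABS (1.77 ± 0.12, edgeR adjusted p = 6.34e-09). For all of these the lowest shAPE1#1 library lay above the highest shControl library by more than 2-fold, and the shControl libraries were close to each other.

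TGM2, a transglutaminase that cross-links proteins (chr20:38127387-38166578, minus strand), stood at 40.8, 46.4 and 41.6 CPM in shAPE1#1 ABS, against 10.5, 17.3 and 13.7 CPM in shControl ABS (1.64 ± 0.14, edgeR adjusted p = 8.45e-08). CPA4, a secreted carboxypeptidase, stood at 17.5, 17.9 and 18.6 CPM in shAPE1#1 ABS, against 5.51, 6.76 and 4.6 CPM in shControl ABS (1.68 ± 0.13, edgeR adjusted p = 3.61e-08). The groups did not overlap for either gene, which the rule for naming them required. The other named rises were the calcium-binding protein S100A16 (1.83), the ADP-ribosyltransferase ART5 (1.82), the phospholipid flippase ATP10D (1.82), the monocyte chemokine CCL7 (1.70), the glucose transporter SLC2A3 (1.58), the secretory granule protein CHGB (1.56), the collapsin response mediator DPYSL3 (1.55), the actin-capping EGF receptor substrate EPS8 (1.55) and the tissue plasminogen activator PLAT (1.54), with an edgeR adjusted p of at most 1.81e-05. S100A16 averaged 528 CPM in OE33 shControl cells, and at the highest share of OE33 signal in shAPE1#1 ABS, 0.245%, that gives 1.29 CPM of the 10.57 CPM measured.

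**Figure D2:**
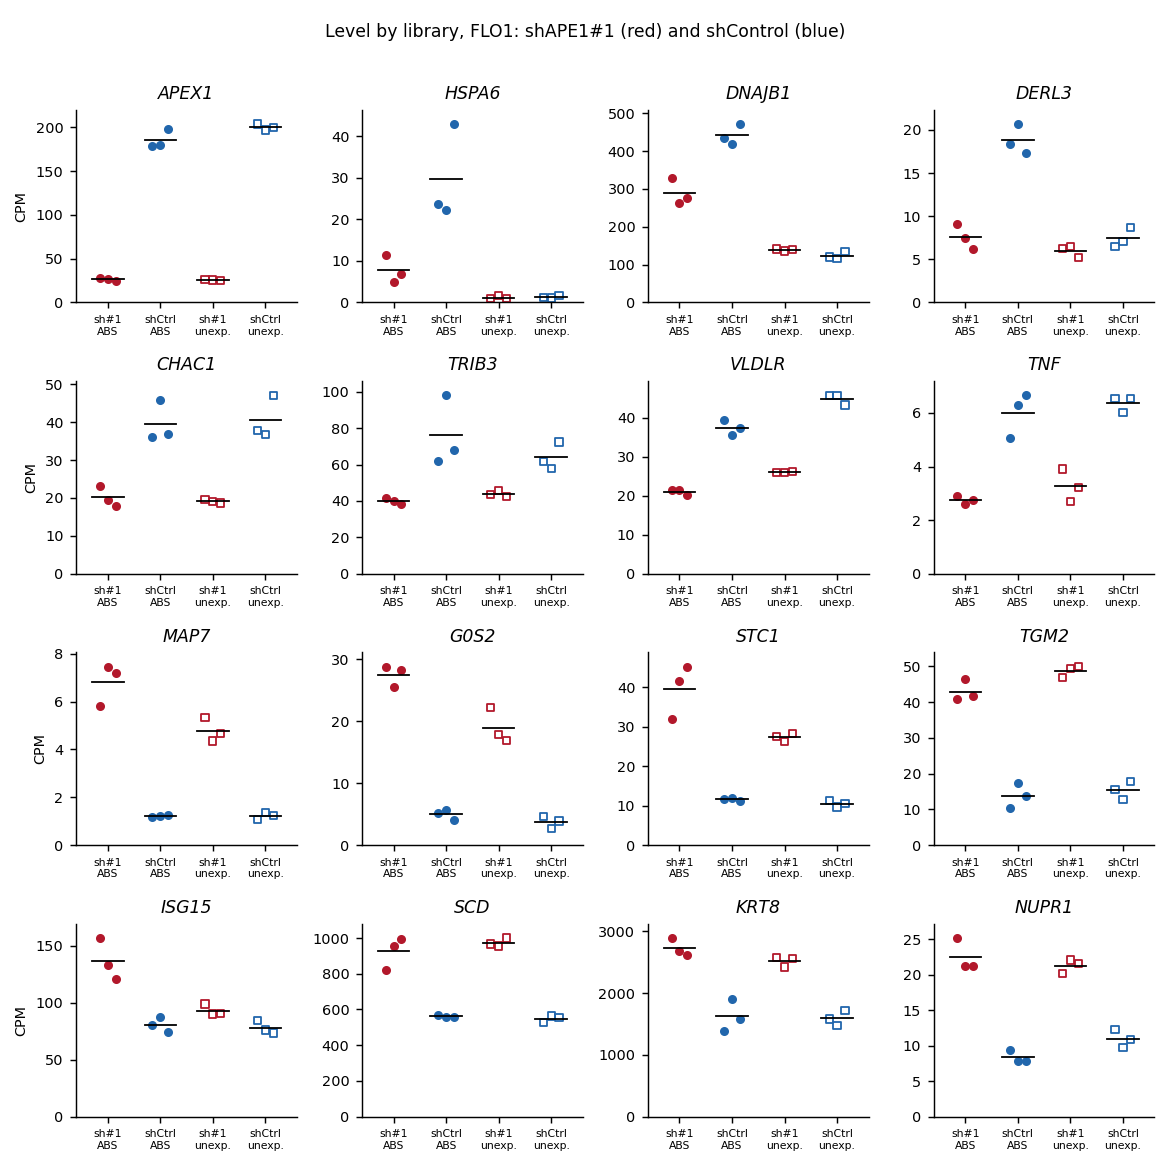
CPM of 16 genes in each library (vertical axes, linear from 0) for shAPE1#1 ABS (filled red), shControl ABS (filled blue), shAPE1#1 unexposed (open red) and shControl unexposed (open blue); bars are group means. HSPA6, DNAJB1 and DERL3 stand apart between the hairpins after ABS and lie close together in unexposed cells, while MAP7, G0S2, STC1, TGM2, NUPR1 and CHAC1 separate the hairpins in both conditions.

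Under the same limits the largest fall after APEX1 was in HSPA6, a strictly stress-inducible member of the HSP70 chaperones (ENSG00000173110; chr1:161524540-161526910, plus strand). It stood at 11.5, 4.95 and 6.81 CPM in shAPE1#1 ABS, against 23.7, 22.3 and 43 CPM in shControl ABS (-1.94 ± 0.25, edgeR adjusted p = 1.98e-05). The highest shAPE1#1 library lay well below the lowest shControl library, although the replicates spread widely within each group. DERL3, an ER membrane protein of the degradation pathway for misfolded proteins (chr22:23834503-23839128, minus strand), stood at 9.07, 7.49 and 6.15 CPM in shAPE1#1 ABS, against 18.4, 20.7 and 17.3 CPM in shControl ABS (-1.31 ± 0.14, edgeR adjusted p = 2.89e-06). LTB, the cytokine lymphotoxin beta, stood at 1.14, 1.27 and 1.62 CPM in shAPE1#1 ABS, against 3.21, 4.12 and 4.47 CPM in shControl ABS (-1.54 ± 0.18, edgeR adjusted p = 5.51e-06). No shAPE1#1 library reached a shControl library in either gene, which the same limits required.

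HRK, a BH3-only activator of apoptosis, stood at 1.58, 1.27 and 1.33 CPM in shAPE1#1 ABS, against 3.38, 4.35 and 3.96 CPM in shControl ABS (-1.48 ± 0.19, edgeR adjusted p = 1.98e-05). DOC2B, a calcium sensor of vesicle release, stood at 23, 25.4 and 23.8 CPM in shAPE1#1 ABS, against 48.4, 72.6 and 61.5 CPM in shControl ABS (-1.33 ± 0.11, edgeR adjusted p = 1.56e-07). Both genes had all shAPE1#1 libraries below all shControl libraries, which was a condition for naming them. The other named falls were TTC9 (-1.29), the ciliary neurotrophic factor receptor CNTFR (-1.29), the transcription factor SOX8 (-1.28), the transporter family member SLC22A31 (-1.21), JDP2, a repressor of the AP-1 family (-1.20), the spectrin SPTBN5 (-1.19), AMN1 (-1.19) and GLI1, the transcription factor of the Hedgehog pathway (-1.19), with an edgeR adjusted p of at most 0.00225. The strand setting of the counting is not given in the sources used here, so JDP2 and its antisense partner JDP2-AS1 cannot be told apart.

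Measured in CPM and under the same limits, the largest differences were in MT-CO1, KRT8, MT-CO3, MT-CO2, FTH1, TMSB4X, LDHA and KRT18. MT-CO1, a mitochondrially encoded subunit of cytochrome oxidase, stood at 9360, 9880 and 10500 CPM in shAPE1#1 ABS, against 8420, 8260 and 8460 CPM in shControl ABS (0.24 ± 0.07, edgeR adjusted p = 0.0286), a call lost with the GC correction (adjusted p = 0.0612); MT-CO3 and MT-CO2 are given with the mitochondrial genes. KRT8, a keratin of simple epithelia, stood at 2890, 2680 and 2620 CPM in shAPE1#1 ABS, against 1390, 1910 and 1580 CPM in shControl ABS (0.75 ± 0.1, edgeR adjusted p = 2.11e-05). Its partner KRT18 stood at 1740, 1510 and 1590 CPM in shAPE1#1 ABS, against 958, 1200 and 1050 CPM in shControl ABS (0.59 ± 0.09, edgeR adjusted p = 0.00012). The annotated ends of KRT8 and KRT18 overlap on opposite strands, so their counts may share reads. FTH1, the ferritin heavy chain, stood at 2480, 2130 and 2060 CPM in shAPE1#1 ABS, against 1230, 1760 and 1350 CPM in shControl ABS (0.62 ± 0.11, edgeR adjusted p = 0.000596), and it has processed copies in the genome. TMSB4X, which binds actin monomers, changed by 0.68 ± 0.11 and LDHA, lactate dehydrogenase A, by 0.48 ± 0.1 (edgeR adjusted p at most 0.00165). The groups did not overlap for any of these 5 genes, which the same limits required.

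The heat shock list was led by inducible chaperones that were lower with shAPE1#1. Of 20 tested members 1 was higher and 4 were lower, with a median change of -0.02, against 8.26% higher, 8.31% lower and a median of -0.004 over all genes tested. The counts of all lists below stand against these same shares. Up to 4 called members per list were named by smallest adjusted p, a choice that favours groups that do not overlap. Over all genes tested the groups did not overlap in 27.7%. Besides HSPA6, DNAJB1, the cochaperone that hands clients to HSP70, stood at 329, 263 and 275 CPM in shAPE1#1 ABS, against 435, 420 and 472 CPM in shControl ABS (-0.62 ± 0.09, edgeR adjusted p = 9.2e-05). HSPA1B stood at 297, 222 and 228 CPM in shAPE1#1 ABS, against 315, 372 and 363 CPM in shControl ABS (-0.49 ± 0.11, edgeR adjusted p = 0.00389), and it is nearly identical to HSPA1A, so its counts are uncertain. The groups did not overlap for DNAJB1 and HSPA1B, although for HSPA1B replicate 1 of shAPE1#1 came close. HSF1, the heat shock transcription factor, was called lower (-0.45 ± 0.14, edgeR adjusted p = 0.0284), but its groups overlapped and the call was lost without shControl ABS replicate 2 (adjusted p = 0.182). The constitutive HSPA8 was called higher at 0.22, a call lost with the GC correction (adjusted p = 0.0613).

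ER chaperone and unfolded protein response genes had 2 of 23 members higher and 7 lower, with a median of -0.08. HSPA5, the ER chaperone BiP (chr9:125234853-125241330, minus strand), stood at 2400, 2110 and 2250 CPM in shAPE1#1 ABS, against 2850, 2630 and 2700 CPM in shControl ABS (-0.28 ± 0.07, edgeR adjusted p = 0.013). HERPUD1, which acts in ER-associated degradation, changed by -0.34 ± 0.09 (edgeR adjusted p = 0.00999), and XBP1, the transcription factor of the unfolded protein response, by -0.31 ± 0.08 (edgeR adjusted p = 0.0126). The stress sensor ATF6 was higher, at 0.36 ± 0.1 (edgeR adjusted p = 0.0124). All of these changes were below 1.5-fold, and the groups did not overlap for any of the 4 genes.

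The integrated stress response list, genes that the transcription factor ATF4 drives when translation is throttled, held the most lower calls of the stress lists. Of 26 tested members 13 were lower and 1 was higher, with a median of -0.33. Without shControl ABS replicate 2, 15 were lower and 1 was higher, and with the GC correction 18 and 1. CHAC1, which breaks down glutathione (chr15:40952962-40956519, plus strand), stood at 23.1, 19.4 and 17.9 CPM in shAPE1#1 ABS, against 36.1, 45.9 and 36.9 CPM in shControl ABS (-0.98 ± 0.12, edgeR adjusted p = 1.32e-05). TRIB3, a pseudokinase that restrains AKT and ATF4, stood at 41.8, 40.2 and 38.4 CPM in shAPE1#1 ABS, against 61.9, 98 and 68.1 CPM in shControl ABS (-0.92 ± 0.12, edgeR adjusted p = 3.73e-05). The highest control value of both genes was that of shControl ABS replicate 2, and without it their changes were -0.86 and -0.69 and still passed. VLDLR, a lipoprotein receptor, stood at 21.6, 21.5 and 20.1 CPM in shAPE1#1 ABS, against 39.4, 35.5 and 37.3 CPM in shControl ABS (-0.83 ± 0.08, edgeR adjusted p = 5e-07). ATF4 itself changed by -0.36, and the serine synthesis enzymes PHGDH and PSAT1 by -0.66 and -0.33. NUPR1, a small stress-induced chromatin protein, went against the list: it stood at 25.2, 21.2 and 21.3 CPM in shAPE1#1 ABS, against 9.35, 7.85 and 7.84 CPM in shControl ABS (1.43 ± 0.12, edgeR adjusted p = 8.43e-08). In unexposed cells 15 members of this list were lower and 1 was higher.

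Promoter windows (250 bases before to 50 after each gene start, RefSeq, GRCh38.p14) were matched to 11563 of the 16868 tested genes. They were scanned on both strands for 8 sites on which the programs described here are known to act. The heat shock element, searched as GAA, TTC and GAA with 2 free bases between them, was in 0.467% of the matched genes and in 7 of 18 heat shock genes. It was in 1 of the 3 lower heat shock genes with a window and in the 1 higher one. The ER stress response element, searched as CCAAT and CCACG with 9 free bases between them, was in 0.138% of the matched genes and in 7 of 22 ER genes, 2 of them among the 7 lower ones with a window. The C/EBP-ATF response element, searched as TGATGNAA, was in 2.69% and in 7 of 22 integrated stress response genes, 4 of them among the 12 lower ones with a window. The stretches that follow lie before the RefSeq start of 4 genes described above and of the asparagine synthetase gene ASNS (-0.33 ± 0.09), chosen after their values were seen, and are shown because they hold these sites; capitals mark the match, and each runs 5′ to 3′ on the strand of its gene.
HSPA6, heat shock element, chr1:161524451-161524493, plus strand: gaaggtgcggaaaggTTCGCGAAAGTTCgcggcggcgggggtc
HSPA5, ER stress response element, chr9:125241376-125241424, minus strand: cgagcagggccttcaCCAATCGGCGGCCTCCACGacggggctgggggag
XBP1, ER stress response element, chr22:28800588-28800636, minus strand: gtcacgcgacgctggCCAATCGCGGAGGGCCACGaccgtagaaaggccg
CHAC1, C/EBP-ATF response element, chr15:40953247-40953284, plus strand: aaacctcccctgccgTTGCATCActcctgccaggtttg
ASNS, C/EBP-ATF response element, chr7:97872454-97872491, minus strand: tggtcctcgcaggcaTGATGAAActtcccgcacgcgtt
In HSPA6 and CHAC1 the match is on the opposite strand, so the capitals show its reverse complement. Of the genes called higher 0.371% held the heat shock element and 2.41% the C/EBP-ATF element, and of those called lower 0.287% and 2.49%.

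Immediate early and AP-1 genes, the transcription factors that answer a stimulus within an hour, had 2 of 27 members higher and 7 lower, with a median of -0.13. EGR1, a zinc finger factor, stood at 30.8, 32.3 and 29.2 CPM in shAPE1#1 ABS, against 49.2, 58.5 and 46.4 CPM in shControl ABS (-0.74 ± 0.1, edgeR adjusted p = 2.31e-05). ATF3, a stress-induced repressor, stood at 103, 92.1 and 99 CPM in shAPE1#1 ABS, against 159, 139 and 134 CPM in shControl ABS (-0.56 ± 0.1, edgeR adjusted p = 0.000477). MAFF changed by -0.70 and the neuronal activity gene ARC by -0.67. The groups did not overlap for any of the 4 genes. Without shControl ABS replicate 2, 4 members were higher and 4 lower, and the median was 0.03. With the GC correction 4 were higher and 7 lower, and the median was -0.02.

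Feedback genes of MAP kinase signalling moved both ways, with 4 of 17 higher and 2 lower. The phosphatase DUSP5 stood at 75.5, 71.9 and 71.7 CPM in shAPE1#1 ABS, against 42.8, 48.9 and 49.5 CPM in shControl ABS (0.64 ± 0.09, edgeR adjusted p = 5.13e-05), and PHLDA1 stood at 153, 155 and 154 CPM, against 98.4, 109 and 103 CPM in shControl ABS (0.58 ± 0.07, edgeR adjusted p = 1.59e-05). SPRED3, an inhibitor of RAS signalling, was lower at -0.98 and the phosphatase DUSP8 at -0.79. HBEGF, a ligand of the EGF receptor, was the 1 called gene of 8 tested in the EGF receptor list: it stood at 58.4, 55.1 and 59.2 CPM in shAPE1#1 ABS, against 35.8, 40.6 and 40.4 CPM in shControl ABS (0.57 ± 0.09, edgeR adjusted p = 0.000125). None of these 5 genes overlapped between the groups.

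NF-kB targets and subunits had 0 of 21 members higher and 11 lower, with a median of -0.37. NF-kB is among the factors whose DNA binding APE1 is known to keep active. TNF, the cytokine that both activates and is driven by NF-kB (chr6:31575567-31578336, plus strand), stood at 2.91, 2.62 and 2.74 CPM in shAPE1#1 ABS, against 5.05, 6.29 and 6.66 CPM in shControl ABS (-1.12 ± 0.15, edgeR adjusted p = 2.69e-05). TNFAIP3, the feedback inhibitor A20, stood at 32.3, 37.1 and 37.7 CPM in shAPE1#1 ABS, against 54.6, 47.9 and 51.9 CPM in shControl ABS (-0.53 ± 0.09, edgeR adjusted p = 0.000447). TNFAIP2 changed by -0.60 ± 0.11 and the subunit gene NFKB1 by -0.39 ± 0.09 (edgeR adjusted p at most 0.00389). The groups did not overlap for these 4 genes. The groups overlapped for RELA, RELB and TNIP2, whose calls were lost without shControl ABS replicate 2 (adjusted p = 0.282, 0.165 and 0.0671). There 0 members were higher and 8 lower, with a median of -0.17, and with the GC correction 2 were higher and 12 lower, with a median of -0.21. A wider list of transcription factors that APE1 is reported to regulate by reduction had 1 of 18 members higher and 6 lower, with a median of -0.13.

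Cytokines and chemokines had 2 of 16 tested members higher and 4 lower. CCL2, which draws monocytes, stood at 705, 646 and 642 CPM in shAPE1#1 ABS, against 506, 420 and 540 CPM in shControl ABS (0.44 ± 0.09, edgeR adjusted p = 0.00268), and CSF1, the macrophage growth factor, was higher at 0.43 ± 0.12 (edgeR adjusted p = 0.0155). CCL20 was lower at -1.13 ± 0.3 and IL32 at -0.39 ± 0.08 (edgeR adjusted p at most 0.0122). CCL20 is also in the NF-kB list. There was no overlap of the groups for these 4 genes.

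Interferon-stimulated genes were higher where they were called. Of 33 tested members 11 were higher and 0 lower, with a median of 0.40, and the counts were 10 and 0 without shControl ABS replicate 2 and 14 and 0 with the GC correction. ISG15, a ubiquitin-like protein (chr1:1001138-1014540, plus strand), stood at 157, 133 and 121 CPM in shAPE1#1 ABS, against 80.3, 87.3 and 74.3 CPM in shControl ABS (0.76 ± 0.11, edgeR adjusted p = 8.42e-05). IFIT1, which binds foreign RNA caps (chr10:89392546-89406486, plus strand), stood at 18.6, 19 and 18.1 CPM in shAPE1#1 ABS, against 13.4, 7.81 and 9.41 CPM in shControl ABS (0.85 ± 0.14, edgeR adjusted p = 0.000392). IFI6, a mitochondrial protein, stood at 32.5, 25.9 and 24.8 CPM in shAPE1#1 ABS, against 18.6, 17.2 and 16.7 CPM in shControl ABS (0.66 ± 0.1, edgeR adjusted p = 0.000113). IFIT2 changed by 0.74 ± 0.14 (edgeR adjusted p = 0.00116). No overlap was seen between the groups for these 4 genes. Genes of class I antigen presentation, which interferon also induces, had 4 of 18 members higher and 0 lower, with a median of 0.21, and 8 and 14 higher under the same 2 alternatives. B2M, the light chain of the class I complex, stood at 1020, 921 and 902 CPM in shAPE1#1 ABS, against 696, 456 and 668 CPM in shControl ABS (0.64 ± 0.12, edgeR adjusted p = 0.00123). ERAP2, which trims peptides, was higher at 0.69, and the immunoproteasome subunits PSMB8 and PSMB9, whose genes overlap at their ends, at 0.39 and 0.44.

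The interferon-stimulated response element, searched as GAAA and GAAA with 2 free bases between them on both strands, was in 3.75% of all genes with a promoter window. It was in 17 of 25 interferon-stimulated genes with a window, among them 8 of the 9 higher ones, in 5.00% of all genes called higher and in 2.11% of those called lower. The 3 stretches shown lie before the RefSeq start of genes with the changes just given, and their capitals mark the matches, which overlap in ISG15.
ISG15, chr1:1013369-1013414, plus strand: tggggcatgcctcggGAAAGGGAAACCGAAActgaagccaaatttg
IFIT1, chr10:89392492-89392544, plus strand: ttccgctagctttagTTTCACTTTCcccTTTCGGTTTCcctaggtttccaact
IFI6, chr1:27672261-27672363, minus strand: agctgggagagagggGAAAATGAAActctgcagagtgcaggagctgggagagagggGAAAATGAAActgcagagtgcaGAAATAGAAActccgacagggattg
IFIT1 holds the reverse complement of the site and the others its forward form. The window is short, and a gene without a match may hold the site elsewhere. The 4 other sites searched gave the following counts. The sterol element, searched as TCACNCCAC, was in 1.35% of all genes, 1 of 24 sterol genes and 0 of the 7 higher ones. The AP-1 site, searched as TGANTCA, was in 7.11% of all genes, 1 of 20 immediate early genes and 0 of the 6 lower ones. The lysosomal CLEAR element, searched as TCACGTGA, was in 2.14% of all genes, 3 of 22 lysosome genes and 0 of the 6 higher ones, and an NF-kB site of GGG and CC with 5 free bases between them was in 79.8% of all genes and 19 of 19 NF-kB genes.

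**Figure D3:**
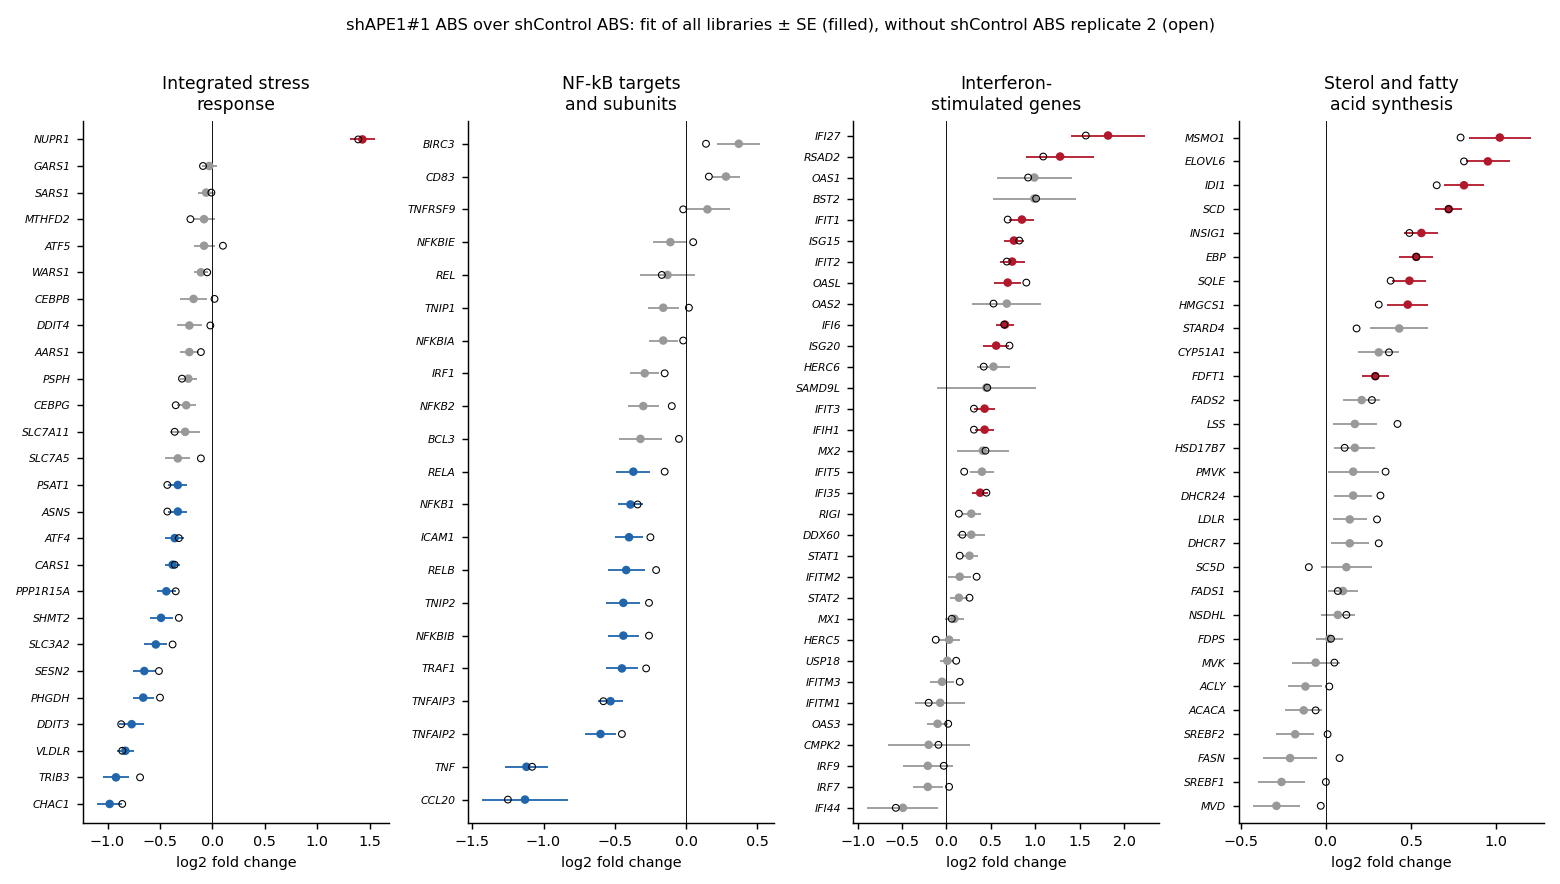
Log2 fold change of shAPE1#1 ABS over shControl ABS (horizontal axes) for the tested members of 4 gene lists, 1 sterol gene left out, as filled points with SE from the fit of all libraries (red, called higher; blue, called lower; grey, not called), and as open circles from the fit without shControl ABS replicate 2. The integrated stress response and NF-kB lists lie mostly left of 0, with NUPR1 at 1.43 on the other side, and the interferon-stimulated and sterol lists have called members to the right of 0 alone.

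Sterol and fatty acid synthesis genes, which the SREBP transcription factors drive, had 10 of 30 members higher and 0 lower, with a median of 0.17. Without shControl ABS replicate 2, 15 were higher and 0 lower, and with the GC correction 17 and 0. SCD, the desaturase that makes oleate (chr10:100347124-100364834, plus strand), stood at 820, 958 and 996 CPM in shAPE1#1 ABS, against 569, 556 and 557 CPM in shControl ABS (0.72 ± 0.08, edgeR adjusted p = 5.64e-06). IDI1, an isoprenoid isomerase, stood at 90.8, 81.3 and 87.4 CPM in shAPE1#1 ABS, against 61, 37.6 and 49 CPM in shControl ABS (0.81 ± 0.12, edgeR adjusted p = 0.000108). The fatty acid elongase ELOVL6 changed by 0.95 ± 0.13 (edgeR adjusted p = 3.91e-05). All shAPE1#1 libraries lay above all shControl libraries in these 3 genes, while FASN, SREBF1 and MVD did not pass, at -0.21, -0.26 and -0.29, and FASN was at 0.08 without shControl ABS replicate 2.

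Lysosome and autophagy genes had 6 of 29 members higher and 1 lower. The counts were 11 and 0 without shControl ABS replicate 2 and 13 and 1 with the GC correction. The sialidase NEU1 stood at 201, 171 and 171 CPM in shAPE1#1 ABS, against 107, 130 and 102 CPM in shControl ABS (0.68 ± 0.1, edgeR adjusted p = 6.36e-05). The protease CTSL (0.54), the cholesterol carrier NPC2 (0.56) and the autophagy protein GABARAPL1 (0.50) were also higher, with an edgeR adjusted p of at most 0.00238. In each of the 4 genes the groups were separate.

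The hypoxia list had 8 of 29 members higher and 2 lower, with a median of 0.11. EPAS1, the transcription factor HIF2A (chr2:46293667-46386703, plus strand), stood at 28.7, 36.8 and 37.8 CPM in shAPE1#1 ABS, against 13, 14.4 and 11.5 CPM in shControl ABS (1.41 ± 0.12, edgeR adjusted p = 1.64e-07). SLC2A3, the glucose transporter GLUT3, stood at 12.6, 11.4 and 11.2 CPM in shAPE1#1 ABS, against 4.1, 3.41 and 4.22 CPM in shControl ABS (1.58 ± 0.14, edgeR adjusted p = 1.64e-07), and PDK1, which keeps pyruvate out of mitochondria, changed by 0.96 ± 0.15 (edgeR adjusted p = 0.000128). The 2 lower members were the growth factor VEGFA (-0.36) and the histone demethylase KDM3A (-0.26). In none of EPAS1, SLC2A3 and PDK1 did the groups overlap.

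Nuclear genes of oxidative phosphorylation had 10 of 35 members higher and 0 lower, with a median of 0.21. Without shControl ABS replicate 2, 5 of 35 were higher, and with the GC correction 13, with 0 lower in each. ATP5F1C, of the ATP synthase, stood at 166, 162 and 164 CPM in shAPE1#1 ABS, against 134, 98.6 and 130 CPM in shControl ABS (0.44 ± 0.11, edgeR adjusted p = 0.00863). SDHD of complex II was higher by 0.44, and the call of SDHC (0.32) was lost without that library (adjusted p = 0.055). Of 13 mitochondrially encoded genes 4 were higher and 0 lower. MT-CO3, of cytochrome oxidase, stood at 4160, 3820 and 4060 CPM in shAPE1#1 ABS, against 3370, 2690 and 3370 CPM in shControl ABS (0.35 ± 0.08, edgeR adjusted p = 0.00713), and the calls of MT-CO1 and MT-CO2 (both 0.24) were lost with the GC correction (adjusted p = 0.0612 and 0.107). Mitochondrial genes took 3.42 to 3.83% of the counts in shAPE1#1 ABS and 2.87 to 3.35% in shControl ABS. Peroxidases, thioredoxins and related antioxidant enzymes had 6 of 21 members higher and 0 lower, with PRDX1, a peroxiredoxin, at 769, 681 and 689 CPM in shAPE1#1 ABS, against 567, 443 and 572 CPM in shControl ABS (0.44 ± 0.1, edgeR adjusted p = 0.00589). NRF2 targets had 4 of 24 higher and 2 lower, with the quinone reductase NQO1 at 0.38 ± 0.08 and the ferritin light chain FTL at 0.32 ± 0.08 (edgeR adjusted p at most 0.00933), while the lower call of KEAP1, the brake on NRF2, was lost without shControl ABS replicate 2 (adjusted p = 0.095). Cytosolic ribosomal proteins and proteasome subunits had 0 called members of 35 and 27, with medians of 0.14 each.

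The called genes of DNA repair were all lower, and each list held a larger lower share than the 8.31% over all genes. Base excision and single-strand break repair, the pathway of APE1 itself, had 0 of 28 members higher and 4 lower with APEX1 left out, with a median of -0.09: the glycosylase NEIL1 (-0.78), the scaffold XRCC1 (-0.32), the polymerase POLL (-0.41) and the ligase LIG1 (-0.33). The groups overlapped for NEIL1 and LIG1. All 4 calls were lost without shControl ABS replicate 2 (adjusted p = 0.132, 0.0617, 0.266 and 0.275), and the call of XRCC1 was also lost with the GC correction (adjusted p = 0.0929). With that correction 1 member was higher and 5 were lower. APEX2, the paralogue of APEX1, averaged 53.37 ± 3.29 CPM in shAPE1#1 ABS and 57.62 ± 7.84 CPM in shControl ABS (SD, n = 3 each), a log2 fold change of -0.11 that did not pass (edgeR adjusted p = 0.473). Homologous recombination and Fanconi anemia genes had 0 of 30 higher and 5 lower. Without shControl ABS replicate 2 these counts were 0 and 7, and with the GC correction 1 and 10. RAD52, a recombination mediator, changed by -0.51 ± 0.12 (edgeR adjusted p = 0.00525), and the call of FANCE (-0.43) was lost without shControl ABS replicate 2 (adjusted p = 0.0783). Of 22 end joining and checkpoint genes 3 were lower and 0 higher, among them the checkpoint mediator MDC1 (-0.48 ± 0.12, edgeR adjusted p = 0.00849). Without shControl ABS replicate 2, 4 of these genes were lower and 0 higher, and with the GC correction 9 and 1. Over all genes 5.83% and 12.1% were lower in those fits.

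DNA replication genes had 1 of 33 members higher and 9 lower, with a median of -0.10. Without shControl ABS replicate 2, 1 was higher and 8 were lower, and with the GC correction 1 and 16. ORC1, of the origin recognition complex, stood at 45.2, 50.4 and 50 CPM in shAPE1#1 ABS, against 59.1, 61.4 and 64.4 CPM in shControl ABS (-0.34 ± 0.08, edgeR adjusted p = 0.00443). MCM2, of the replicative helicase, stood at 255, 257 and 247 CPM in shAPE1#1 ABS, against 308, 459 and 350 CPM in shControl ABS (-0.56 ± 0.11, edgeR adjusted p = 0.00147), MCM5 changed by -0.54 and MCM7 by -0.44. The MCM genes were highest in shControl ABS replicate 2, and without it their changes were -0.38, -0.30 and -0.28 and still passed. Of 28 mitosis genes 3 were lower and 0 higher, with a median of 0.02, and the calls of ESPL1 and PLK1 were lost without that library (adjusted p = 0.102 and 0.261). With the GC correction 6 were lower and 0 higher. Targets of p53 moved both ways, with 7 of 26 higher and 4 lower. The cell death receptor FAS stood at 6.19, 5.62 and 5.8 CPM in shAPE1#1 ABS, against 3.48, 2.65 and 3.5 CPM in shControl ABS (0.86 ± 0.19, edgeR adjusted p = 0.00452), and PERP and TP53I3 were higher at 0.47 and 0.54. SESN2, a stress-induced inhibitor of mTORC1 that ATF4 drives as well, was lower at -0.65 ± 0.11 (edgeR adjusted p = 0.000377).

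Among the genes of adhesion, the cytoskeleton and matrix breakdown most did not pass. Integrins, laminins and collagen receptors had 7 of 22 members higher and 1 lower. CD44, the hyaluronan receptor (chr11:35138870-35232402, plus strand), stood at 1280, 1410 and 1390 CPM in shAPE1#1 ABS, against 906, 955 and 967 CPM in shControl ABS (0.53 ± 0.07, edgeR adjusted p = 3.04e-05), and the laminin chain LAMB3 changed by 0.67 and the integrin ITGA6 by 0.59, with LAMA5 lower at -0.61. Plasminogen activators and matrix proteases had 6 of 16 higher and 0 lower, with a median of 0.29. PLAT, the tissue plasminogen activator, stood at 20.7, 21.3 and 20.2 CPM in shAPE1#1 ABS, against 5.74, 8.04 and 7.8 CPM in shControl ABS (1.54 ± 0.12, edgeR adjusted p = 5.19e-08), and its inhibitor SERPINE2 stood at 49.1, 48.1 and 50.1 CPM, against 25.8, 27.2 and 26.4 CPM in shControl ABS (0.89 ± 0.08, edgeR adjusted p = 1.56e-07). The urokinase gene PLAU (0.50) and the protease inhibitor TIMP3 (1.07) were higher too. The members named thus include both activators and inhibitors, while 10 of the 16 tested members were not called. Actin contractility genes had 6 of 22 higher and 0 lower. The actin-binding protein CALD1 stood at 15.5, 19.4 and 21.2 CPM in shAPE1#1 ABS, against 9.28, 6.43 and 7.89 CPM in shControl ABS (1.24 ± 0.15, edgeR adjusted p = 1.19e-05), and the tropomyosin TPM2 changed by 0.49.

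Epithelial junction genes had 5 of 25 members higher and 1 lower, against 8.26% and 8.31% over all genes. CDH1, E-cadherin (chr16:68737225-68835548, plus strand), stood at 13.3, 16.3 and 16.9 CPM in shAPE1#1 ABS, against 7.9, 7 and 6.41 CPM in shControl ABS (1.12 ± 0.13, edgeR adjusted p = 4.67e-06). CLDN4, a tight junction claudin, stood at 34.1, 30.6 and 29.2 CPM in shAPE1#1 ABS, against 13.2, 20.1 and 14.9 CPM in shControl ABS (0.97 ± 0.16, edgeR adjusted p = 0.000324). Mesenchymal genes had 2 of 15 tested members higher and 1 lower: the gelatinase MMP2 stood at 156, 162 and 158 CPM in shAPE1#1 ABS, against 63.1, 94.3 and 69.3 CPM in shControl ABS (1.07 ± 0.12, edgeR adjusted p = 3.52e-06), and ZEB2, a repressor of E-cadherin, stood at 4.92, 5.7 and 6.29 CPM, against 11.3, 9.46 and 10.1 CPM in shControl ABS (-0.87 ± 0.14, edgeR adjusted p = 0.000195). Both sets of 3 libraries stayed apart for these 4 genes.

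Several genes of columnar and gastric mucous epithelium were at low levels in all 3 shAPE1#1 ABS libraries and close to 0 in all 3 shControl ABS libraries. In such bulk RNA a change in the number of expressing cells and in the RNA per cell cannot be told apart. Of 18 tested members of that list 6 were higher and 2 lower. The counts were 4 and 0 without shControl ABS replicate 2 and 6 and 2 with the GC correction. The gel-forming mucin MUC5AC stood at 3.03, 5.99 and 8.28 CPM in shAPE1#1 ABS, against 0.0984, 0.0473 and 0.211 CPM in shControl ABS, and did not pass (edgeR adjusted p = 0.115). TSPAN8, a tetraspanin, stood at 3.9, 2.28 and 4.04 CPM in shAPE1#1 ABS, against 0 counts in all shControl ABS libraries, at least 83.5-fold higher when set against 3 counts over that group (edgeR adjusted p = 0.0247, and 0.0803 without shControl ABS replicate 2). The level of these genes varied between libraries of 1 group: in unexposed cells MUC5AC stood at 0.0781, 0.0737 and 6.93 CPM with shAPE1#1 and 1.38, 0.128 and 0.0782 CPM with shControl, and TSPAN8 at 0, 0.0369 and 2.63 CPM and 0.344, 0.128 and 0 CPM. The trefoil peptides TFF1 (edgeR adjusted p = 0.0517) and TFF2 (edgeR adjusted p = 0.0834) were at 1.92 to 3.61 CPM and 3.62 to 8.37 CPM in shAPE1#1 ABS without passing, and they averaged 6.83 and 0.226 CPM in OE33 shControl cells. The calls of AGR2, CEACAM5 and IGFBP3, other genes at low levels, were lost without shControl ABS replicate 2 (adjusted p = 0.104, 0.0625 and 0.141). At steadier levels, the transcription factor GATA6 stood at 12.3, 11.3 and 11.2 CPM in shAPE1#1 ABS, against 6.46, 7.29 and 5.69 CPM in shControl ABS (0.84 ± 0.13, edgeR adjusted p = 0.000136).

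Several signalling pathways had called members on both sides, as a list can at 8.26% higher and 8.31% lower over all genes. Notch and Wnt genes had 6 of 26 higher and 8 lower. DKK1, a secreted Wnt inhibitor (chr10:52314296-52318042, plus strand), stood at 136, 130 and 124 CPM in shAPE1#1 ABS, against 64.9, 49.2 and 65.3 CPM in shControl ABS (1.12 ± 0.11, edgeR adjusted p = 6.46e-07), and the ligand WNT10A was higher at 1.15. The intracellular Wnt inhibitors NKD1 and NKD2 were lower, at -1.86 ± 0.26 and -0.95 ± 0.16 (edgeR adjusted p at most 0.000378). NKD1 did not meet the limits on level and overlap set for the largest falls named above. Axon guidance genes had 5 of 24 higher and 6 lower: the netrin NTN4 (1.51) and the receptor NRP1 (0.79) were higher, and the ephrin EFNA1 stood at 74.2, 63.4 and 64.3 CPM in shAPE1#1 ABS, against 105, 143 and 127 CPM in shControl ABS (-0.89 ± 0.1, edgeR adjusted p = 6.12e-06), with the plexin PLXNA1 at -0.98. IGF2, an insulin-like growth factor, stood at 97.7, 132 and 119 CPM in shAPE1#1 ABS, against 209, 322 and 250 CPM in shControl ABS (-1.16 ± 0.14, edgeR adjusted p = 6.12e-06). Targets of YAP and TEAD had 3 of 23 higher and 5 lower, with CCN2, a matricellular protein, at 193, 167 and 166 CPM in shAPE1#1 ABS, against 243, 306 and 256 CPM in shControl ABS (-0.61 ± 0.09, edgeR adjusted p = 0.000113). Genes of TGF-beta, activin and BMP feedback had 4 of 26 higher and 2 lower, with the decoy receptor BAMBI at 0.44 and the BMP target ID1 at 0.40.

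The circadian clock list had 3 of 16 members higher and 7 lower, against 8.26% and 8.31% over all genes. The counts were 3 and 4 without shControl ABS replicate 2 and 3 and 8 with the GC correction. PER2, a repressor of the clock, stood at 7.4, 11.5 and 10 CPM in shAPE1#1 ABS, against 15.3, 19.2 and 16.4 CPM in shControl ABS (-0.81 ± 0.14, edgeR adjusted p = 0.000538), and BMAL1, an activator, stood at 30.9, 32.7 and 34.2 CPM, against 26, 22.5 and 19.8 CPM in shControl ABS (0.52 ± 0.1, edgeR adjusted p = 0.00119). Regulators of complement had 4 of 14 higher and 1 lower, with CD59, which blocks the membrane attack complex, at 627, 619 and 612 CPM in shAPE1#1 ABS, against 383, 326 and 398 CPM in shControl ABS (0.75 ± 0.09, edgeR adjusted p = 9.6e-06). Of the genes that bear on the exposure itself, acid and bicarbonate transporters had 3 of 13 tested members higher and 3 lower: ATP6V1A, of the proton pump, stood at 54.9, 64.1 and 64.6 CPM in shAPE1#1 ABS, against 42.1, 26.1 and 31.9 CPM in shControl ABS (0.87 ± 0.13, edgeR adjusted p = 9.2e-05), and the sodium-proton exchanger SLC9A3 stood at 5.04, 6.54 and 7.01 CPM, against 10.4, 14.1 and 9.57 CPM in shControl ABS (-0.87 ± 0.15, edgeR adjusted p = 0.000548). Bile acid and xenobiotic receptors and transporters had 2 of 15 higher and 3 lower, among them AHRR, the repressor of the aryl hydrocarbon receptor (-0.60), and S1PR2, a receptor for conjugated bile acids (-0.72 ± 0.2, edgeR adjusted p = 0.018). The groups did not overlap for any of the genes named here.

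**Figure D4:**
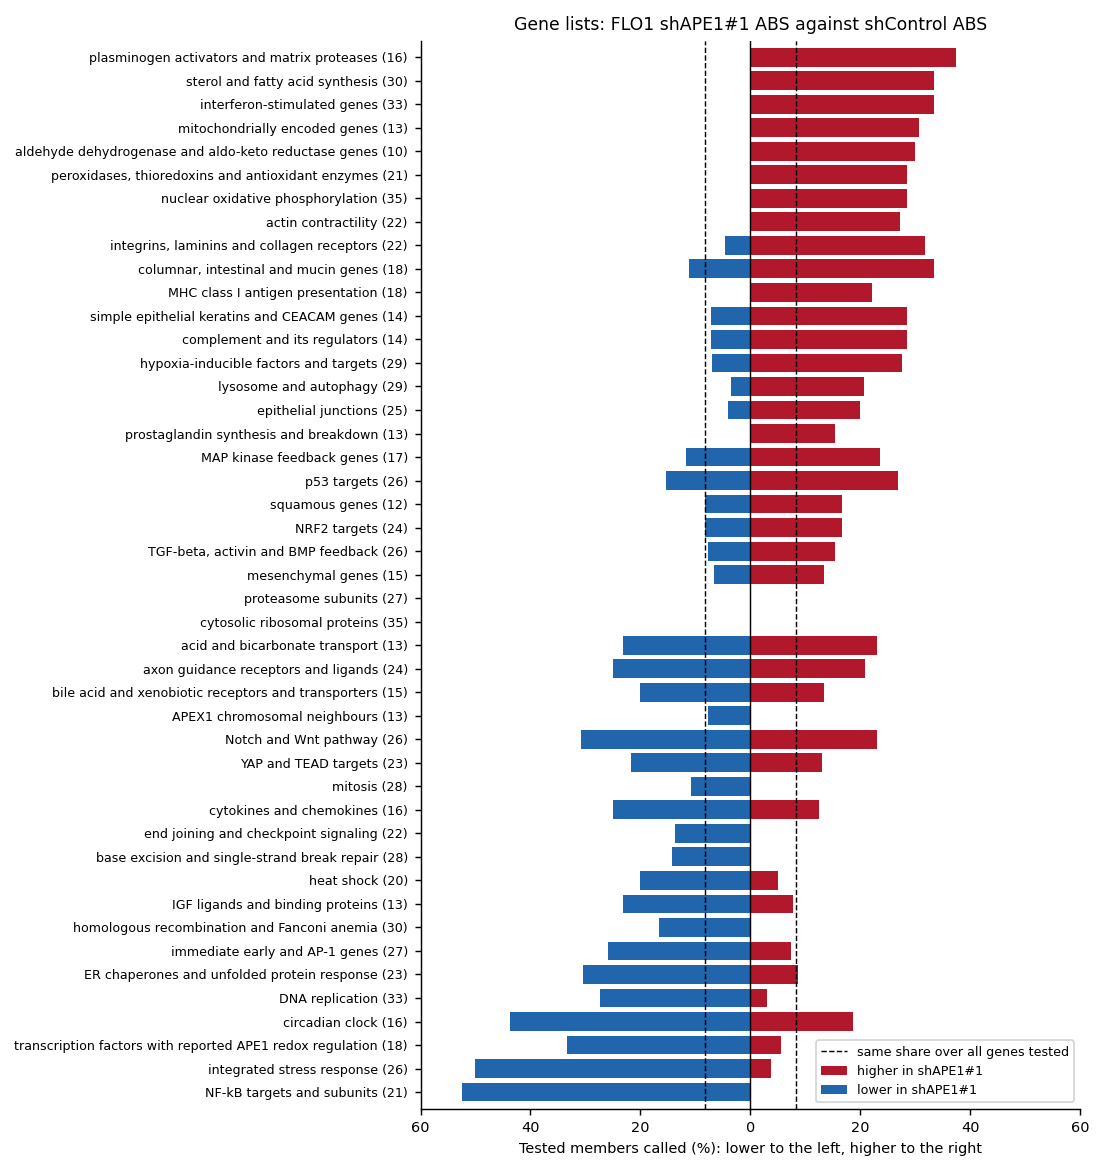
Share of tested members called higher (red, right) and lower (blue, left) in shAPE1#1 ABS against shControl ABS for each list with at least 10 tested members (number in brackets), ordered by the difference of the 2 shares. Dashed lines are the shares over all 16868 genes, 8.26% higher and 8.31% lower. The NF-kB and integrated stress response lists, with 11 of 21 and 13 of 26 lower, lie at the bottom, and the plasminogen activator list, with 6 of 16 higher, at the top.

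The same hairpin was set against shControl in unexposed cells, with other libraries on both sides. There 1137 genes were called (6.74%), 763 higher (4.52%) and 374 lower (2.22%). Of these, 760 were called in the same direction after ABS (531 higher and 229 lower), which is 66.8% of the genes called in unexposed cells and 27.2% of those called after ABS, and 1 gene was called in opposite directions. The counts depend on the fit: with only the groups compared, 2463 genes were called in unexposed cells and 422 after ABS. Without shControl ABS replicate 2 these counts were 2319 and 2390. Across genes the changes in the 2 conditions had a Pearson r of 0.43 and a Spearman rho of 0.427. These describe genes, which are not independent replicates, and the GC trend of shControl ABS replicate 2 enters them. Large rises named above were large in both: unexposed G0S2 changed by 2.35, CPA4 by 2.09, MAP7 by 1.95, PLAT by 1.85 and EPAS1 by 1.70, and the falls of CHAC1 (-1.09) and TNF (-0.96) were also there. HSPA6 averaged 1.162 CPM with shAPE1#1 and 1.332 CPM with shControl in unexposed cells, near its floor, and the change of -0.18 did not pass (edgeR adjusted p = 0.859). DERL3 averaged 5.989 and 7.433 CPM there and did not pass either (-0.31, edgeR adjusted p = 0.262). A call in 1 condition and not in the other is not a test of the difference between them, which follows below.

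**Figure D5:**
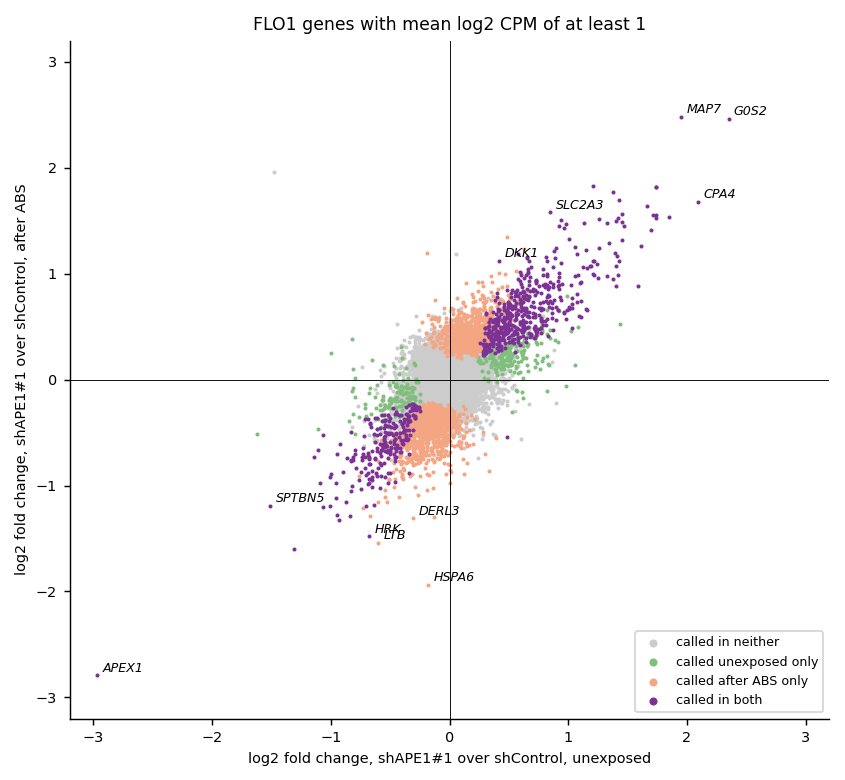
Log2 fold change of shAPE1#1 over shControl after ABS (vertical) and in unexposed cells (horizontal) for genes whose mean log2 CPM was 1 or more; colours show where a gene was called. MUC5AC, at 5.55 after ABS and not called, lies beyond the axis. The rises of G0S2 and MAP7 and the fall of APEX1 lie near the diagonal, and HSPA6 and DERL3 lie below the centre with little change in unexposed cells. LTB and HRK fell by -1.54 and -1.48 after ABS and by -0.60 and -0.68 in unexposed cells.

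Whether the change after ABS differed from that in unexposed cells was tested as an interaction. In edgeR 0 of 16868 genes passed (0.00%), while 1615 (9.57%) had an unadjusted p under 0.05 and the smallest adjusted p was 0.067. DESeq2 called 30 genes, edgeR without a count filter 80, and edgeR with the GC correction 56, 36 of them with a higher change after ABS. The smallest adjusted p, 0.067, was shared by 6 genes, among them DNAJB1 with an interaction of -0.78 ± 0.13, HBEGF with 0.68 ± 0.12, HSPA1A with -0.84, CSF2 with 0.91 and DUSP16 with -0.64. With the GC correction all 5 passed, with an adjusted p of 0.00884 for DNAJB1, 0.00294 for HBEGF, 0.0136 for HSPA1A, 0.00195 for CSF2 and 0.0006 for DUSP16. In DNAJB1 and HSPA1A the unexposed change was 0.16 and 0.53 and the change after ABS -0.62 and -0.31. CSF2, a growth factor of myeloid cells, stood at 22.9, 18.2 and 19.9 CPM in shAPE1#1 ABS, against 16, 20.1 and 20.9 CPM in shControl ABS, and at 7.5, 6.82 and 7.13 CPM in unexposed shAPE1#1, against 12.9, 12.4 and 12.2 CPM in unexposed shControl: the groups overlapped after ABS and were apart without it. The interaction of HSPA6, -1.75 ± 0.48, had an unadjusted p of 0.00158 and did not pass (edgeR adjusted p = 0.402, and 0.317 with the GC correction). That of DERL3, -1 ± 0.21, did not pass (edgeR adjusted p = 0.134) but passed with the GC correction (edgeR adjusted p = 0.0161).

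The comparison with the other hairpin shows where the lines with low APEX1 differ. Set against each other after ABS, in the fit of all 18 libraries, the 2 hairpins differed in 3757 genes (22.3%), and a fit of only those 6 libraries called 4746. Without shControl ABS replicate 2, which enters the shared fit, the count was 5643. SLC2A3 stood at 12.6, 11.4 and 11.2 CPM in shAPE1#1 ABS, against 1.12, 1.54 and 1.1 CPM in shAPE1#3 ABS (3.21 ± 0.16, edgeR adjusted p = 2.91e-11), with the shControl ABS mean of 3.908 CPM between them. ART5 stood at 19.8, 16.3 and 15 CPM in shAPE1#1 ABS, against 2.69, 1.91 and 2.39 CPM in shAPE1#3 ABS (2.87 ± 0.15, edgeR adjusted p = 7.58e-11), and CCL7 at 7.92, 8.21 and 8.48 CPM, against 0.933, 0.957 and 1.29 CPM in shAPE1#3 ABS (2.93 ± 0.19, edgeR adjusted p = 9.45e-10). ART5 and CCL7 averaged 4.845 and 2.478 CPM in shControl ABS, so all 3 genes lay above shControl ABS with shAPE1#1 and below it with shAPE1#3. That second comparison shares the control libraries. G0S2 and MAP7 stood at 4.343 and 1.158 CPM on average in shAPE1#3 ABS, against 4.983 and 1.225 CPM in shControl ABS. Among the falls, HSPA6 stood at 11.5, 4.95 and 6.81 CPM in shAPE1#1 ABS, against 19.7, 24.8 and 24.4 CPM in shAPE1#3 ABS (-1.57 ± 0.25, edgeR adjusted p = 0.000104), and LTB, CNTFR and the vitamin D hydroxylase CYP24A1 differed by -1.46, -1.65 and -1.86. The hairpins did not differ past the threshold in DNAJB1 (-0.07, edgeR adjusted p = 0.614), HERPUD1 (0.09, edgeR adjusted p = 0.468), EGR1 (-0.23, edgeR adjusted p = 0.0899) and TNFAIP3 (-0.25, edgeR adjusted p = 0.051), which averaged 303.5, 154.3, 36.14 and 42.51 CPM with shAPE1#3 after ABS. A p above the threshold does not show that the hairpins act alike. The NF-kB genes TNF, TNFAIP2 and NFKB1 did differ, by -0.67, -0.67 and -0.39 (edgeR adjusted p at most 0.00254). Against shAPE1#3, 12 of 21 NF-kB genes were called lower with shAPE1#1 and 1 higher. In the integrated stress response list 13 of 26 were lower and 1 higher. Of 33 interferon-stimulated genes 15 were higher and 0 lower, and of 30 sterol genes 13 and 0. Over all 16868 genes 1853 were higher and 1904 lower.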

How the data were processed

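The authors deposited 1 table of raw read counts per gene for 36 polyA RNA-seq libraries, and the counts were used as deposited. Per the submitters' processing notes, the tools were Trimmomatic 0.36, STAR 2.5.2b and featureCounts of Subread 1.5.2, with GRCh38. For annotation release, strand setting and multi-mapping reads the setting is not given in the sources used, so near-copies and overlapping genes are uncertain. Of 57500 gene IDs 56898 had a symbol, from GENCODE 29.

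The 18 FLO1 libraries (6 groups of 3) were fitted together with edgeR 4.0.16 in R 4.3.3 (TMM factors, filterByExpr, robust quasi-likelihood fit), and p-values were adjusted by Benjamini-Hochberg over all genes, at a threshold of 0.05. CPM used TMM library sizes. The GC correction fitted a lowess trend (span 0.3) of each library on transcript GC content, known for 99.56% of tested genes, as an offset. DESeq2 1.42.0 was an alternative. The fit was tested on simulated data with known changes.

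Named genes were APEX1, up to 14 rises and 14 falls by fold (mean log2 CPM 1 or more, groups that do not overlap), up to 8 by CPM difference, up to 4 called members per list by adjusted p (2 by level where none was called), and up to 6 each way between hairpins. Others were chosen after their values were seen. Members and lists were chosen with earlier results of these data known. No 2 replicates agreed within sampling noise. The design text calls the replicates independent, and p-values measure the spread between these libraries. A few genes are not reported here.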

Additional observations from a re-analysis of the deposited data

How the results depend on the processing

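None of the 200 genes chosen by the rule reversed under an alternative, while FASN, named outside it and not called, changed sign. Of 192 rule-named genes called, 86 kept the call under all of them, and 102 lost it in the fit of only the groups compared. After ABS that fit called 422 genes (281 higher, 141 lower) and the GC correction 4258, and leaving out 1 library gave 1831 (without shAPE1#1 ABS replicate 3) to 4565 (without shControl ABS replicate 1). The interaction had 0 calls, 80 with no count filter, 30 with DESeq2, 56 with the GC correction, 47 without shControl ABS replicate 2 and with the GC correction (chosen after seeing the data), and 0 to 12 with 1 library left out (12 without shControl ABS replicate 2). Between the hairpins the count was 2304 (without shAPE1#3 ABS replicate 1) to 5643 (without shControl ABS replicate 2). Unexposed, it was 2463 with only the groups compared, 2953 with the GC correction, 3307 without shControl ABS replicate 2 and with the GC correction, and 665 (without shAPE1#1 replicate 3) to 2319 (without shControl ABS replicate 2) with 1 library left out. Where a count moved, the cause was not tested.

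After the group mean of each gene was taken off its log2 CPM, same-numbered libraries of the main groups had correlations of -0.0873, 0.0183 and 0.0345. The GC trend of shControl ABS replicate 2 enters these values, so they cannot show whether same-numbered libraries share a batch. With the replicate block 2308 genes were called after ABS, and with the block and the GC correction 39 in the interaction and 2691 unexposed.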
